A study of Mus musculus with 8 samples.

Results

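Genes of macrophages, monocytes and neutrophils were followed in RNA from splenic CD8+ T cells. The set holds 35 genes chosen by symbol, and all 35 were found among the 55291 genes of the deposited table. They mark myeloid phagocytes, which an enrichment of CD8+ T cells is meant to remove. The cells came from spleens of naïve mice and were enriched with a commercial magnetic CD8+ T cell isolation kit, and the labels name no flow sort. Polyadenylated RNA was sequenced from 4 samples labelled ATF4 overexpression (genotype ATF4 Tg/Tg, called ATF4OE here) and 4 labelled WT. The series' design text gives the mice other names, ATF4Tg/Tg and E8IcreATF4Tg/Tg, that is, an Atf4 transgene without or with a Cre driven by E8I, an enhancer of Cd8a used in mature CD8+ T cells. Under that text the controls would carry the transgene too, and WT here means no more than that label. Age is not given in the labels, and neither is whether each sample was a mouse of its own. P-values thus measure the spread among the samples, part of which may be technical.

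Macrophages of the splenic red pulp engulf old red cells and recycle their iron, a program set by the transcription factor SpiC. Monocytes and neutrophils arise from bone marrow precursors under the transcription factors PU.1 and C/EBP alpha. Neutrophils fill their granules in order, the azurophil granules with myeloperoxidase and elastase first and the specific granules with lactoferrin and cathelicidin later. Several of the genes are not exclusive to myeloid cells: natural killer (NK) cells share Tyrobp, Fcer1g and Itgam, memory and effector T cells can express Itgax and Ccr2, and B cells express Ly86 and Spi1.

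Libraries held 93478686 to 125974143 estimated counts. They fell into 2 sets that differ in how the columns are named, replicates 1 and 2 of each group (set 1) and replicates 3 and 4 (set 2). In ATF4OE replicates 1 and 2 and WT replicates 1 and 4, fewer genes had 3 to 5 counts than 8 to 10 counts, and these 4 are called the libraries short of low counts. Atf4 was at 445, 427, 228 and 212 CPM (counts per 1000000 counts of the TMM-scaled library) in ATF4OE libraries, against 285, 308, 165 and 165 CPM in WT libraries (replicates 1 to 4). Its log2 fold change was 0.51 over all libraries (edgeR quasi-likelihood test, adjusted p = 0.367) and 0.48 with the replicate number as a block (adjusted p = 0.000219), so the block changed the call. It was 0.59 in set 1 alone (adjusted p = 0.00383) and 0.41 in set 2 alone (adjusted p = 0.00463). With the 4 libraries short of low counts left out, which leaves ATF4OE replicates 3 and 4 and WT replicates 2 and 3, it was -0.11 (adjusted p = 0.858). Every fit without these 4 libraries sets ATF4OE of set 2 alone against WT of both sets. Group and library set are partly confounded there. Cd8a was at 995 to 1155 CPM in ATF4OE and 1282 to 1515 CPM in WT, so the labelled cell type was present in every library.

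All 35 genes had a positive fitted log2 fold change of ATF4OE over WT, from 0.60 for Cd68 to 5.12 for Mpo. Of them 24 were higher and 0 lower (edgeR quasi-likelihood test, Benjamini-Hochberg adjusted p below 0.05 over 16630 tested genes). Across all tested genes 9.16% were higher and 4.89% lower. The median log2 fold change was 2.48 for the 35 genes and -0.02 for all tested genes. Values of the groups did not overlap for 29 of the 35, with ATF4OE above WT, against 13.3% of all tested genes, with 8.66% the other way round. No ATF4OE mean was below its WT mean. For the 29 the exact permutation test, two-sided with 70 assignments of libraries, gave its smallest possible p of 0.0286, unadjusted. Of the 35, 10 fell short of the filter's level of 0.0877 CPM in at least 1 WT library and passed with the help of the ATF4OE libraries. Of these 10, 4 were called, and among the other 25, 20 were called with a median of 2.42.

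Within each library set, 2 libraries against 2, 27 of the 35 genes were higher and 0 lower in set 1, where 6.75% of tested genes were higher and 3.07% lower. In set 2, 30 were higher and 0 lower, where 14.3% of tested genes were higher and 8% lower. With the replicate number as a block 28 were higher and 0 lower, where 13.7% of tested genes were higher and 13.5% lower. With the 4 libraries short of low counts left out 20 were higher and 0 lower, against 7.29% and 1.94% of tested genes. With no filter on low counts 19 were higher and 0 lower, against 5.56% and 2.7%, and the calls lost were those of Tyrobp, Itgam, Ccr2, Camp and Mpo.

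The summed level of the 35 genes was 379, 383, 617 and 621 CPM in ATF4OE libraries, against 56.0, 56.8, 158 and 149 CPM in WT libraries. Both groups were higher in set 2, and the lowest ATF4OE library was above the highest WT library. The genes do not weigh evenly in this sum. Lyz2, which was not called, was at 42.1, 23.9, 158 and 164 CPM in ATF4OE, against 3.16, 4.12, 43.4 and 40.8 CPM in WT. The means were 499.9 ± 138 CPM in ATF4OE and 105 ± 56.3 CPM in WT (SD, n = 4 each), or 0.05% and 0.0105% of the counts. In these bulk samples a larger number of cells of a type and more RNA per cell cannot be told apart. In the same libraries the list of 16 CD8 T cell genes summed to 7653 to 8134 CPM in ATF4OE and 9404 to 9949 CPM in WT, with 8 genes lower and 0 higher. Of these 16, 13 were lower with the replicate block, 2 in set 1 alone, 10 in set 2 alone and 0 with the 4 libraries short of low counts left out. The last of these fits is not balanced by library set.

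**Figure D1:**
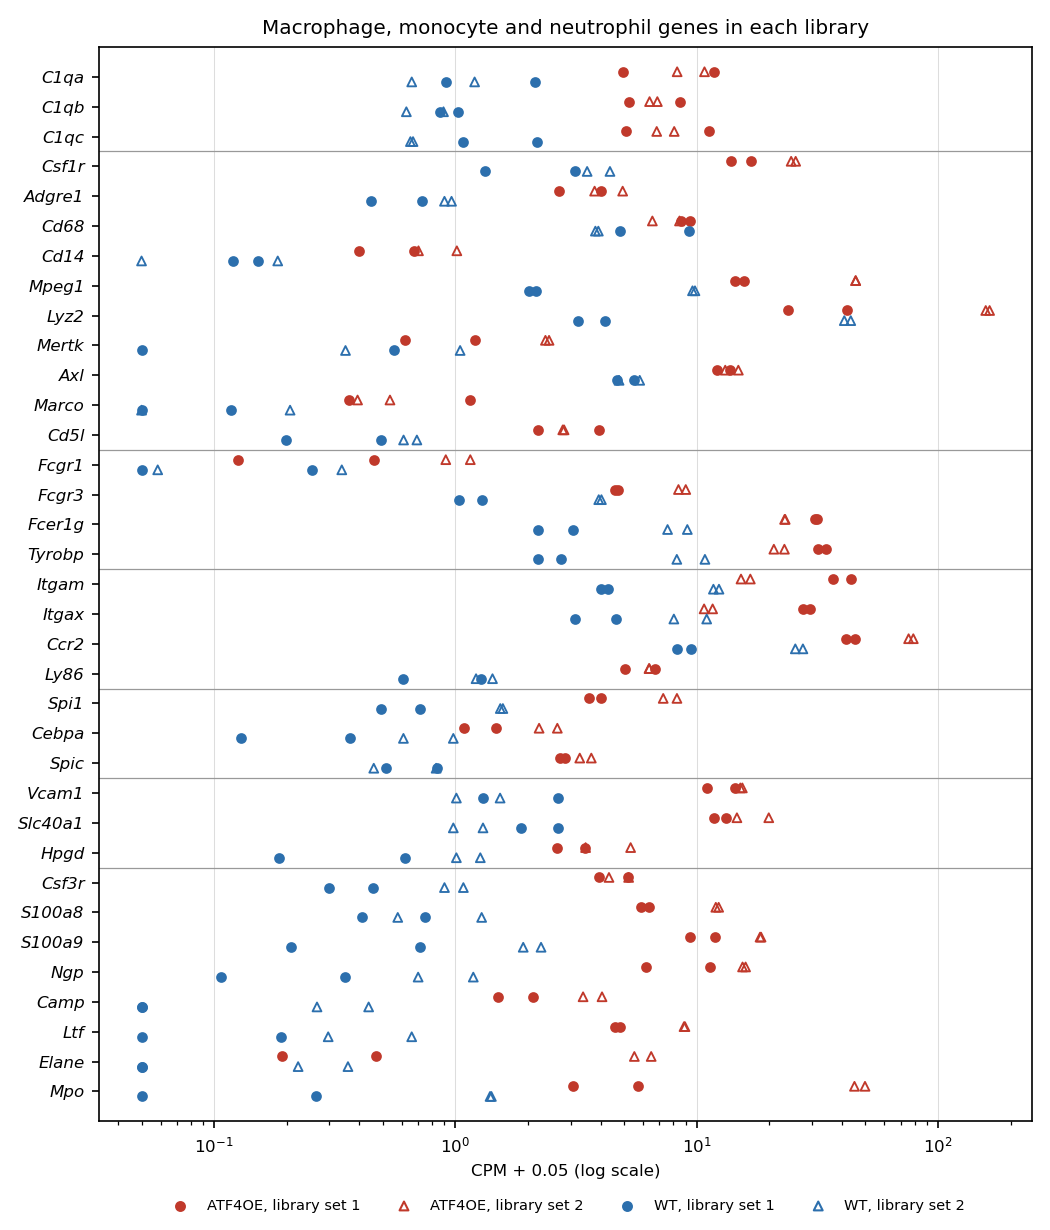
CPM plus 0.05 on a log axis of each of the 35 genes in each library, ATF4OE in red and WT in blue, circles for library set 1 and triangles for set 2, with lines between the roles. For 29 genes every ATF4OE point lies right of every WT point, and Lyz2, Mpo and Elane also split by library set.

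C1q, the recognition molecule that starts the classical complement pathway, is made in tissues mainly by macrophages, and its 3 chains are encoded side by side on chromosome 4. All 3 genes were higher. C1qa (GRCm38 chromosome 4, 136895917 to 136898803, minus strand) was at 4.89, 11.8, 8.25 and 10.7 CPM in ATF4OE libraries, against 2.08, 0.864, 1.15 and 0.609 CPM in WT libraries. C1qb (136880129 to 136886187) was at 5.17, 8.47, 6.82 and 6.33 CPM in ATF4OE, against 0.813, 0.973, 0.842 and 0.576 CPM in WT. C1qc was at 5.05, 11.2, 6.78 and 8.02 CPM in ATF4OE, against 2.14, 1.02, 0.617 and 0.601 CPM in WT. In each gene the lowest ATF4OE library was replicate 1, and the groups did not overlap. The log2 fold changes were 2.92 ± 0.42, 3.06 ± 0.25 and 2.83 ± 0.45 (SE; adjusted p = 0.00146, 6.5e-05 and 0.00259), and the summed level of the 3 was 7.61-fold higher.

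Genes of iron recycling and adhesion in the red pulp were higher in 3 of 3. Slc40a1, ferroportin, which exports iron from macrophages, was at 11.8, 13.2, 19.8 and 14.6 CPM in ATF4OE, against 2.62, 1.82, 1.25 and 0.930 CPM in WT (log2 fold change 3.17 ± 0.33, adjusted p = 0.000259). Vcam1, an adhesion molecule of red pulp macrophages and of endothelium, was at 10.97, 14.3, 15.1 and 15.4 CPM in ATF4OE, against 2.60, 1.25, 0.959 and 1.48 CPM in WT (3.15 ± 0.30, adjusted p = 0.000162). Both genes had their lowest ATF4OE value several times above their highest WT value. Hpgd, which inactivates prostaglandins, was at 2.60, 3.41, 3.41 and 5.27 CPM in ATF4OE, against 0.136, 0.566, 0.959 and 1.22 CPM in WT (2.34 ± 0.56, adjusted p = 0.0199). Its call was lost without ATF4OE replicate 4 (adjusted p = 0.0571) or WT replicate 2 (adjusted p = 0.0595).

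Spic, the factor that sets the red pulp program, rose with them. It was at 2.66, 2.79, 3.23 and 3.61 CPM in ATF4OE, against 0.791, 0.467, 0.409 and 0.782 CPM in WT (log2 fold change 2.33 ± 0.32, adjusted p = 0.00120). The groups were apart and each was narrow. Spi1, which encodes PU.1, was at 3.96, 3.54, 8.23 and 7.21 CPM in ATF4OE, against 0.441, 0.665, 1.48 and 1.52 CPM in WT (2.47 ± 0.46, adjusted p = 0.00583), and was higher in set 2 of both groups. Cebpa, a factor of granulocyte and monocyte precursors, was at 1.42, 1.04, 2.17 and 2.59 CPM in ATF4OE, against 0.316, 0.0794, 0.559 and 0.930 CPM in WT. Its log2 fold change of 1.93 ± 0.65 was not called (adjusted p = 0.0793), and with the replicate number as a block it was 2.25 (adjusted p = 0.00703).

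Genes of PU.1 and C/EBP alpha are in the set, and ATF4 itself binds DNA with C/EBP partners. The 250 bases before RefSeq's start of the genes were therefore searched for 3 motifs on both strands. RefSeq windows (GRCm38.p6) matched 27 of the 35 genes in 28 windows. GAGGAA, the core of PU.1 sites, was in 16 of the 28 windows and in 23.3% of all 32851 windows. TTGCNNAA, a form of the C/EBP site, was in 6 of the 28 and in 9.56% of all windows. TGATGNAA, the element bound by ATF4 with a C/EBP partner, was in 1 of the 28, that of Cd5l, and in 3.45% of all windows. A match is a description of letters and not a binding site. The windows of 4 genes that rose are given 5′ to 3′ on the strand of the gene, with motif matches in capitals, because they stand for the macrophage, S100 and granule genes described here. C1qb (chr4:136886201-136886450, minus strand), S100a8 (chr3:90668821-90669070, plus strand) and Mpo (chr11:87793534-87793783, plus strand) hold 1, 2 and 2 PU.1 cores, on either strand. S100a9 (chr3:90695722-90695971, minus strand) holds 1 C/EBP match and no PU.1 core. GENCODE's starts of S100a8 (90668978) and Mpo (87793581) lie inside their windows. Part of each of these windows is thus within the gene as GENCODE annotates it.
C1qb: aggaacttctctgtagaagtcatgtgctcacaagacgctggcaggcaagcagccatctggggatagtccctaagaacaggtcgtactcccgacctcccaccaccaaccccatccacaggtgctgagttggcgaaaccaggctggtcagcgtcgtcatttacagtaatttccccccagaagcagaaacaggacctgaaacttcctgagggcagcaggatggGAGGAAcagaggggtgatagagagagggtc
S100a8: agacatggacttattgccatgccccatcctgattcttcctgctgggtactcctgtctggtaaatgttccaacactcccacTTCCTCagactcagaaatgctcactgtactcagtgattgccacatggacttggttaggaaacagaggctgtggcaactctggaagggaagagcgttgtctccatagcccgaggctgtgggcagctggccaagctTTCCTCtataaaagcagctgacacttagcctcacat
S100a9: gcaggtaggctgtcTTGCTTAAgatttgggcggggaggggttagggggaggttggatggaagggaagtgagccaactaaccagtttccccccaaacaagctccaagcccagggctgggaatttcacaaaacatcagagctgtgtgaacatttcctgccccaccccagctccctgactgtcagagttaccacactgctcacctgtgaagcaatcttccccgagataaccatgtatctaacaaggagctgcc
Mpo: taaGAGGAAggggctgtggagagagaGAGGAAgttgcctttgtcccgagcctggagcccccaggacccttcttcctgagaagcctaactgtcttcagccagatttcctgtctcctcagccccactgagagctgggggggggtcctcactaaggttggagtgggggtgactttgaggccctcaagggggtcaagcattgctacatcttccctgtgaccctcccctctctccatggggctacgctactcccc

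Of 10 genes of macrophage receptors and the lysosome, 4 were higher and 6 were not called. With the replicate block 7 were higher. Csf1r, the receptor on which macrophage survival depends (chromosome 18, 61100598 to 61132149, plus strand), was at 13.8, 16.8, 25.7 and 24.6 CPM in ATF4OE, against 3.08, 1.27, 4.32 and 3.46 CPM in WT. The lowest ATF4OE library was above the highest WT library (log2 fold change 2.73 ± 0.36, adjusted p = 0.00104). Adgre1, which encodes the macrophage antigen F4/80, was at 2.63, 3.95, 4.88 and 3.72 CPM in ATF4OE, against 0.395, 0.675, 0.851 and 0.913 CPM in WT (2.42 ± 0.34, adjusted p = 0.00130). Cd5l, a secreted protein of tissue macrophages, was at 2.14, 3.88, 2.74 and 2.77 CPM in ATF4OE, against 0.441, 0.149, 0.642 and 0.560 CPM in WT (2.68 ± 0.45, adjusted p = 0.00352). With the 4 libraries short of low counts left out its call was lost (2.78, adjusted p = 0.0772).

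Axl, a receptor for apoptotic cells, was even within the groups, at 12.1, 13.7, 14.8 and 13.1 CPM in ATF4OE, against 5.42, 4.62, 5.75 and 4.71 CPM in WT. Its log2 fold change of 1.39 ± 0.14 was the smallest of the 24 called genes (adjusted p = 0.000203). Mertk, a related receptor, was at 1.15, 0.566, 2.31 and 2.39 CPM in ATF4OE, against 0.508, 0, 0.300 and 0.996 CPM in WT, with overlap between the groups (1.83 ± 1.01, adjusted p = 0.300). Cd68, a lysosomal glycoprotein, was at 8.58, 9.30, 6.499 and 8.44 CPM in ATF4OE, against 4.75, 9.28, 3.86 and 3.75 CPM in WT. WT replicate 2 stood above the other WT libraries and in the range of ATF4OE (log2 fold change 0.60 ± 0.29, adjusted p = 0.228). Without WT replicate 2 it was 0.99 (adjusted p = 0.0140), and with the replicate block 0.69 (adjusted p = 0.0305).

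Lyz2, lysozyme of macrophages and neutrophils, and Mpeg1, a pore-forming protein of phagocytes, split by library set in both groups. Lyz2 was at 42.1, 23.9, 158 and 164 CPM in ATF4OE, against 3.16, 4.12, 43.4 and 40.8 CPM in WT. ATF4OE replicate 1 lay among the WT libraries of set 2 and replicate 2 below them, and the difference over all libraries was not called (log2 fold change 2.08 ± 1.03, adjusted p = 0.257). It was called within set 1 (3.21, adjusted p = 0.000390), within set 2 (1.93, adjusted p = 3.26e-05) and with the replicate block (2.46, adjusted p = 0.0211). Mpeg1 was at 14.3, 15.7, 45.6 and 45.5 CPM in ATF4OE, against 2.10, 1.97, 9.56 and 9.78 CPM in WT. Its groups did not overlap, and it missed the threshold over all libraries (2.37 ± 0.69, adjusted p = 0.0567) and passed with the replicate block (2.54, adjusted p = 9.91e-06). Cd14, the lipopolysaccharide co-receptor, and Marco, a scavenger receptor, were low. Cd14 was at 0.349 to 0.963 CPM in ATF4OE and 0 to 0.133 CPM in WT (adjusted p = 0.0630). Marco was at 0.312 to 1.10 CPM in ATF4OE and 0 to 0.156 CPM in WT (adjusted p = 0.126).

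**Figure D2:**
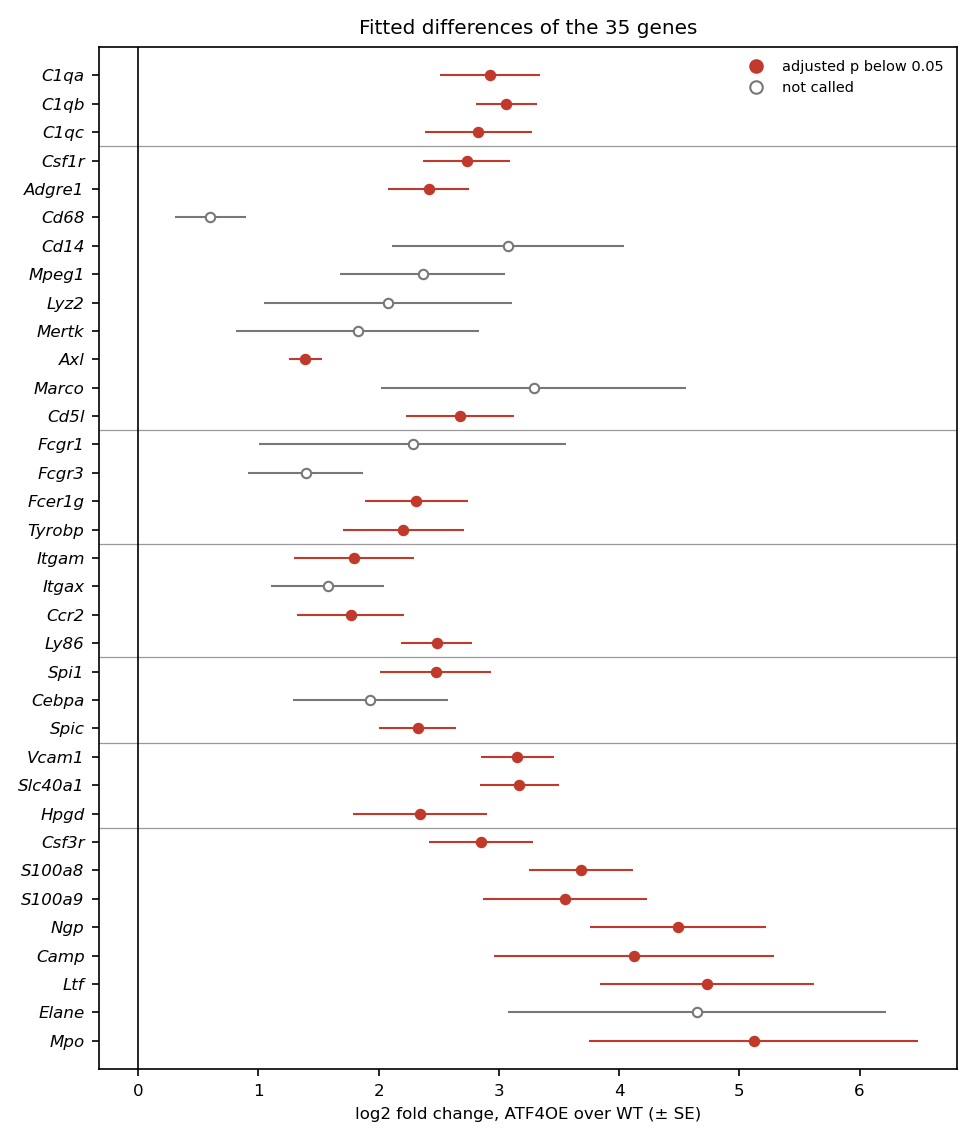
Fitted log2 fold change of ATF4OE over WT with its standard error for each of the 35 genes, by role, filled where the adjusted p was below 0.05. All lie right of 0, from 0.60 for Cd68 to 5.12 for Mpo.

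Of 8 neutrophil genes 7 were higher, and with the replicate block all 8. Of the 8, Ngp, Camp, Ltf, Elane and Mpo fell short of the filter's level in at least 1 WT library and passed with the help of ATF4OE. The 3 that reached that level in every WT library, Csf3r, S100a9 and S100a8, had log2 fold changes of 2.86, 3.55 and 3.68. S100a8 and S100a9 encode the subunits of calprotectin, the most abundant protein of the neutrophil cytosol. S100a8 was at 6.30, 5.81, 12.3 and 11.9 CPM in ATF4OE, against 0.362, 0.695, 1.23 and 0.527 CPM in WT (log2 fold change 3.68 ± 0.43, adjusted p = 0.000524). S100a9 was at 9.36, 11.9, 18.4 and 18.3 CPM in ATF4OE, against 0.158, 0.665, 1.86 and 2.21 CPM in WT (3.55 ± 0.68, adjusted p = 0.00893). For both, the lowest ATF4OE library was several times above the highest WT library. Csf3r, the receptor of the granulocyte growth factor G-CSF, was at 5.12, 3.87, 4.28 and 5.17 CPM in ATF4OE, against 0.407, 0.248, 0.851 and 1.03 CPM in WT (2.86 ± 0.43, adjusted p = 0.00203).

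Among specific granule genes, Ngp, neutrophilic granule protein, was at 6.14, 11.3, 15.4 and 15.9 CPM in ATF4OE, against 0.0565, 0.298, 0.650 and 1.14 CPM in WT (log2 fold change 4.49 ± 0.73, adjusted p = 0.00379). Ltf, lactoferrin, was at 4.75, 4.52, 8.81 and 8.89 CPM in ATF4OE, against 0, 0.139, 0.609 and 0.247 CPM in WT (4.73 ± 0.89, adjusted p = 0.00734). Camp, the cathelicidin precursor, was at 1.46, 2.04, 4.00 and 3.33 CPM in ATF4OE, against 0, 0, 0.217 and 0.387 CPM in WT (4.13 ± 1.17, adjusted p = 0.0448). Within ATF4OE, set 2 was above set 1 for each of the 3, by ratios of 1.79, 1.91 and 2.10. In set 1 Camp had 398 counts over the ATF4OE libraries and 0 over the WT libraries, at least 109-fold higher against a floor of 3 counts summed over the WT libraries. WT replicate 1 is short of low counts, which this floor does not take into account. The call of Camp was lost in 7 of the 8 fits without 1 library, all but that without WT replicate 4 (adjusted p 0.0377 to 0.114), and when the 4 libraries short of low counts were left out (adjusted p = 0.0733).

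The azurophil granule genes stood apart between the library sets. Mpo, myeloperoxidase, was at 3.01, 5.66, 45.0 and 49.8 CPM in ATF4OE, against 0.215, 0, 1.36 and 1.34 CPM in WT (log2 fold change 5.12 ± 1.37, adjusted p = 0.0436). Elane, neutrophil elastase, was at 0.417, 0.142, 6.43 and 5.46 CPM in ATF4OE, against 0, 0, 0.309 and 0.173 CPM in WT (4.64 ± 1.57, adjusted p = 0.0897; with the replicate block 4.99, adjusted p = 0.000253). Within ATF4OE, set 2 was 10.9-fold above set 1 for Mpo and 21.3-fold above set 1 for Elane, and within WT 12.6-fold for Mpo. Erythroid genes moved between the sets in the same libraries: the erythroid list summed to 176 and 158 CPM in set 1 and 393 and 372 CPM in set 2 of ATF4OE, against 119 and 107 CPM in set 1 and 99.4 and 87.4 CPM in set 2 of WT. In WT the sum was lower in set 2, and most of it was Tfrc, at 105, 90.4, 82.8 and 73.7 CPM. Tfrc is named after its values were seen. The part of the erythroid genes in the result was not tested. The call of Mpo held in 1 of the 8 fits without 1 library, that without ATF4OE replicate 1 (adjusted p 0.0316 to 0.144 over the 8), and was lost with limma-voom (adjusted p = 0.463), in set 1 alone (adjusted p = 0.0631) and with the 4 libraries short of low counts left out (adjusted p = 0.0587).

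**Figure D3:**
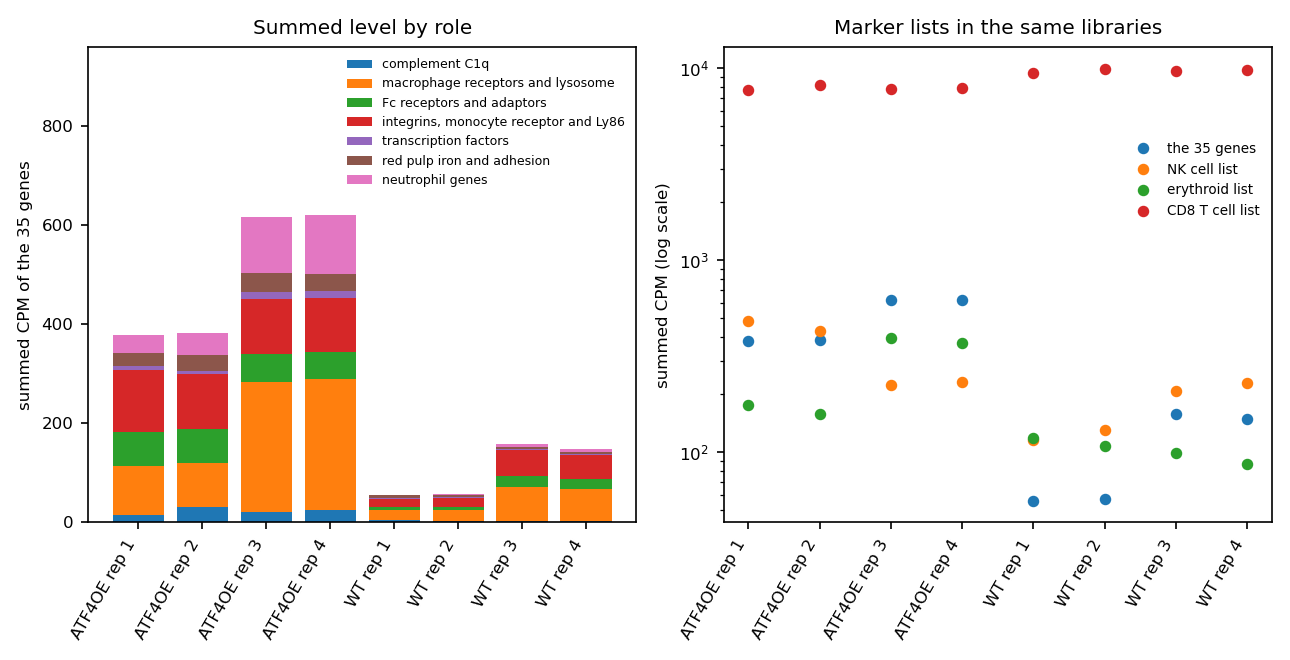
Left, summed CPM of the 35 genes in each library, stacked by role. Right, summed CPM on a log axis of the 35 genes and of lists of NK, erythroid and CD8 T cell genes in the same libraries. The 35 genes summed to 379 to 621 CPM in ATF4OE and 56.0 to 158 CPM in WT, while the NK list was highest in ATF4OE replicates 1 and 2.

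The share of neutrophil genes in the summed level of the 35 genes was 9.66%, 11.8%, 18.6% and 19.1% in ATF4OE libraries, against 2.14%, 3.60%, 4.48% and 4.73% in WT libraries. The groups did not overlap in this share, and no test was made of it. It includes Ngp, Camp, Ltf, Elane and Mpo, which passed the filter with the help of the ATF4OE libraries. In ATF4OE replicates 1 to 4 Mpo alone was at 3.01, 5.66, 45.0 and 49.8 CPM. The neutrophil genes summed to 36.5, 45.3, 115 and 119 CPM there. The integrin, Ccr2 and Ly86 group took 17.7% to 33.1% in ATF4OE and 30.9% to 32.8% in WT. Per kilobase of annotated exon, the highest mean levels in ATF4OE were those of Lyz2 with 73.6, Tyrobp with 41.3 and Fcer1g with 31.1 CPM per kb. In WT the same genes were at 17.4, 8.93 and 6.23 CPM per kb.

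Adaptors and integrins that NK cells also use followed another pattern. Tyrobp, the adaptor DAP12, was at 34.5, 31.9, 23.0 and 20.8 CPM in ATF4OE, against 2.15, 2.68, 10.8 and 8.22 CPM in WT (log2 fold change 2.21 ± 0.50, adjusted p = 0.0199). Fcer1g, the Fc receptor gamma chain, was at 30.8, 31.4, 23.2 and 23.1 CPM in ATF4OE, against 2.16, 3.01, 7.52 and 9.09 CPM in WT (2.31 ± 0.43, adjusted p = 0.00712). Both were highest in set 1 of ATF4OE and lowest in set 1 of WT. Itgam, the integrin CD11b, was at 43.7, 36.6, 15.2 and 16.6 CPM in ATF4OE, against 4.23, 3.95, 12.3 and 11.7 CPM in WT (1.80 ± 0.50, adjusted p = 0.0444). Itgax, the integrin CD11c, was at 29.6, 27.6, 10.7 and 11.6 CPM in ATF4OE, against 3.07, 4.59, 10.9 and 7.99 CPM in WT (1.58 ± 0.47, adjusted p = 0.0579). In set 2 the groups were close for Itgam and overlapped for Itgax. With the replicate block the calls of Tyrobp (2.45, adjusted p = 0.0978) and Itgam (1.82, adjusted p = 0.228) were lost. Both were also lost with the 4 libraries short of low counts left out (adjusted p = 0.155 for Tyrobp and 0.303 for Itgam), Tyrobp without ATF4OE replicate 3 (adjusted p = 0.0653), and Itgam in all 8 fits without 1 library (adjusted p 0.0602 to 0.105). In set 1 alone both genes were called higher (adjusted p = 1.36e-05 for each). In set 2 alone they were called higher too (adjusted p = 0.00320 for Tyrobp and 0.0456 for Itgam).

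The difference between the groups was set against the library set with an interaction term. For 6 of the 35 genes it passed, each with the larger difference in set 1, where 0.998% of all tested genes passed, 0.523% with the larger difference in set 2 and 0.475% in set 1. For Itgam the log2 fold change was 3.33 in set 1 alone and 0.41 in set 2 alone (interaction -2.89 ± 0.18, adjusted p = 9.78e-05). Tyrobp differed by 3.81 and 1.21 (adjusted p = 0.000960), Fcer1g by 3.62 and 1.48 (adjusted p = 0.00247) and Itgax by 2.93 and 0.23 (adjusted p = 0.00263) in sets 1 and 2. These 4 held in all 8 fits without 1 library. Ccr2 and Camp also passed (adjusted p = 0.0364 and 0.0346). Their interactions held without WT replicate 1 for Ccr2 and without WT replicate 3 for Camp, and in no other fit without 1 library. As for these 4 genes, the mean of the NK list was highest in set 1 of ATF4OE and lowest in set 1 of WT. The 10 NK genes summed to 485, 428, 223 and 233 CPM in ATF4OE, against 116, 131, 208 and 230.5 CPM in WT, and 9 of the 10 genes passed the interaction. In set 2 these sums overlapped between the groups. Ncr1, an activating receptor of NK cells, was at 44.4, 39.9, 11.7 and 12.6 CPM in ATF4OE, against 2.07, 2.13, 7.80 and 8.04 CPM in WT. The part of NK cell RNA in these genes was not tested.

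**Figure D4:**
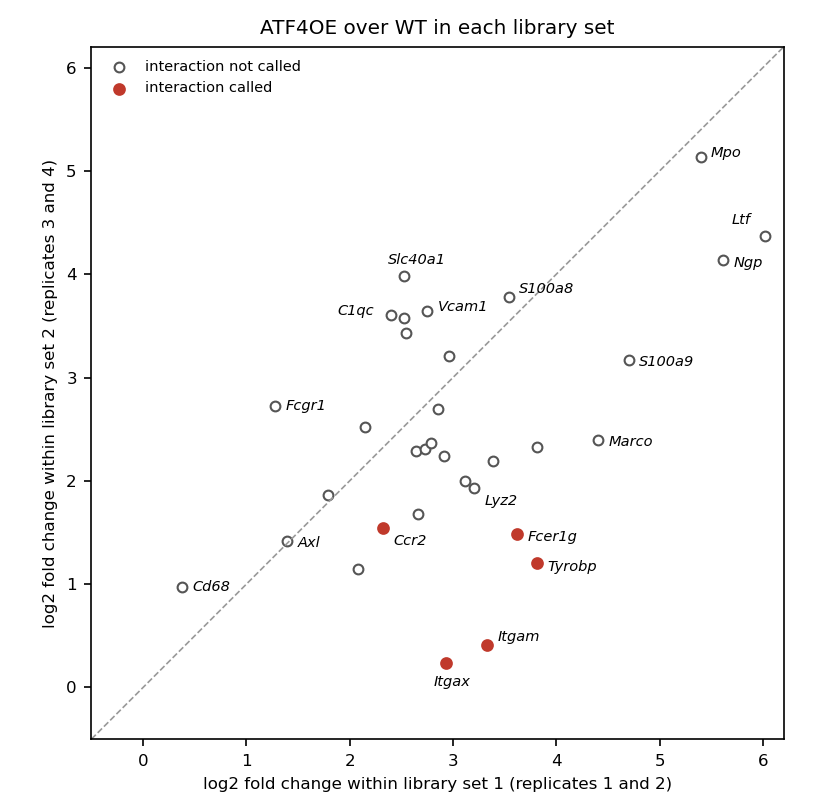
Log2 fold change of ATF4OE over WT within library set 1 (horizontal) and within set 2 (vertical) for 33 of the 35 genes, leaving out Camp and Elane, which had 0 counts in both WT libraries of set 1. Red points, Fcer1g, Tyrobp, Itgam, Itgax and Ccr2, passed the interaction and lie below the line of equal change.

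Ccr2, the receptor that guides monocytes out of the marrow, was at 45.4, 41.4, 79.0 and 75.5 CPM in ATF4OE, against 9.46, 8.24, 27.5 and 25.6 CPM in WT (log2 fold change 1.77 ± 0.44, adjusted p = 0.0309). Its call was lost without ATF4OE replicate 3 or 4 or WT replicate 1 or 2 (adjusted p 0.0533 to 0.116) and with the 4 libraries short of low counts left out (adjusted p = 0.0851). Ccr2 was called with the replicate block (1.91, adjusted p = 0.000449), in set 1 alone (2.33, adjusted p = 3.92e-05) and in set 2 alone (1.54, adjusted p = 7.26e-05). Fcgr3, an activating receptor for IgG of low affinity, was at 4.69, 4.52, 8.96 and 8.35 CPM in ATF4OE, against 0.983, 1.24, 3.98 and 3.88 CPM in WT. The groups did not overlap, and the difference was called with the replicate block (1.58, adjusted p = 0.00146) but not without it (1.39 ± 0.48, adjusted p = 0.0884). Fcgr1, the IgG receptor of high affinity, was at 0.0755 to 1.10 CPM in ATF4OE and 0 to 0.288 CPM in WT and was not called (adjusted p = 0.304). Ly86, a partner of the receptor RP105 in myeloid and B cells, was at 6.64, 4.98, 6.31 and 6.29 CPM in ATF4OE, against 0.554, 1.23, 1.17 and 1.37 CPM in WT (2.48 ± 0.30, adjusted p = 0.000567). B cell genes were higher too, in 8 of 12, among them Blk, a B cell kinase, at 13.7 to 22.6 CPM in ATF4OE and 1.42 to 2.52 CPM in WT, and their part in Ly86 and Spi1 was not tested. With the 4 libraries short of low counts left out 1 of the 12 B cell genes was higher, Blk, and the median log2 fold change of the list was 1.36, against 2.33 over all libraries.

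Salmon divides reads that match several genes, and 9 of the 35 genes had estimates with decimals in at least 1 library, Itgax in all 8, Ccr2 in 7, Fcgr3 in 6 and Itgam in 5. Whether counting used strand is not given in the sources used here. Exons of 5 genes overlap another annotated gene, Csf1r with Hmgxb3, Cebpa with Gm45091, Vcam1 with Gm43109 and Mpo with Gm11505 on the other strand, and Itgam with Gm49368 on the same strand. Reads of such pairs may have been shared between them.

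Further genes of the same cells, 47 in 3 lists, were higher in 19 and lower in 2 of 44 tested, with a median log2 fold change of 2.40. With the replicate block 33 were higher and 2 lower. Without ATF4OE replicate 3 or 4 the number higher was 12 or 11. Of 17 further macrophage genes 11 were higher and 1 lower (median 2.38), and Vsig4 was at 0 counts in every library. Mrc1, the mannose receptor, was at 4.19 to 6.12 CPM in ATF4OE and 0.646 to 1.12 CPM in WT. Apoe, an apolipoprotein that macrophages secrete, was at 41.0 to 98.7 CPM in ATF4OE and 7.44 to 13.8 CPM in WT. Cybb, the catalytic subunit of the phagocyte oxidase, was at 11.9 to 23.4 CPM in ATF4OE and 2.57 to 5.84 CPM in WT. Ctss, cathepsin S, the member that was lower and is named after its value was seen, was at 120 to 140 CPM in ATF4OE and 141 to 182 CPM in WT (log2 fold change -0.33, adjusted p = 0.0357).

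Of 12 further monocyte genes 5 were higher and 1 lower. Treml4, a receptor of patrolling monocytes and splenic macrophages, was at 2.66 to 3.70 CPM in ATF4OE and 0.292 to 0.554 CPM in WT (log2 fold change 3.03 ± 0.32, adjusted p = 0.000290). Ace, the angiotensin-converting enzyme, and Ifitm3, a membrane protein that restricts viruses, rose by 2.40 and 2.72 on the log2 scale. Ms4a6d was lower, at 1.15 to 2.17 CPM in ATF4OE and 2.56 to 4.51 CPM in WT. Ly6c2, which naive and memory CD8+ T cells also express, was at 238 to 299.6 CPM in ATF4OE and 249.9 to 336 CPM in WT and was not called (adjusted p = 0.542). Ms4a6d, Ly6c2 and the genes of these lists named for low counts, Vsig4, Ly6g and Cebpe, are named after their values were seen. Of 15 tested further neutrophil genes 3 were higher and 0 lower, Lcn2, Mmp9 and Hp, and with the replicate block 10 were higher. Ly6g, the surface marker that defines mouse neutrophils, was near 0, with 0, 0, 19 and 14 counts in ATF4OE libraries, against 0, 14, 0 and 0 counts in WT libraries. Its zeros include all 4 libraries short of low counts, ATF4OE replicates 1 and 2 and WT replicates 1 and 4. Ly6g did not pass the filter over all libraries. It was not called in set 2 alone (adjusted p = 0.0698) or with the 4 libraries short of low counts left out (adjusted p = 0.777). Cebpe, a factor of granulocyte maturation, did not pass the filter over all libraries, with 8, 16, 22 and 49 counts in ATF4OE libraries, against 0 in each WT library. In set 2 alone Cebpe passed the filter through the ATF4OE libraries only, and it was called higher there (adjusted p = 0.0314). With the 4 libraries short of low counts left out it was not called (adjusted p = 0.0701). Lcn2, an iron-binding protein of specific granules, was at 1.23, 2.42, 4.82 and 4.46 CPM in ATF4OE, against 0.203, 0.0794, 0.359 and 0.263 CPM in WT (3.82 ± 0.58, adjusted p = 0.00205). The azurophil granule genes Prtn3 and Ctsg, named after their values were seen, split by set within ATF4OE as Mpo and Elane did. Prtn3 was at 0.737, 0.529, 12.0 and 10.3 CPM in ATF4OE, against 0.215, 0, 0.225 and 0.494 CPM in WT (adjusted p = 0.0525; with the replicate block 0.0120).

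Genes of other cells moved in the same libraries, and their part in the levels of the 35 genes was not tested. Of the erythroid list 8 of 12 genes were higher and 0 lower, of the platelet list 7 of 9 and 0, and of the NK list 3 of 10 and 0. With the replicate block 7 erythroid, 7 platelet and 0 NK genes were higher, and with the 4 libraries short of low counts left out 8, 4 and 0. Values of 10 of the 12 B cell genes did not overlap between the groups, with ATF4OE above WT. The sum of the B cell list was mostly Ighm, the IgM heavy chain, which averaged 582 ± 109.9 CPM in ATF4OE and 624 ± 65.2 CPM in WT (SD, n = 4 each; log2 fold change -0.10, adjusted p = 0.721). The platelet list summed to 69.7 to 85.7 CPM in ATF4OE and 26.9 to 36.9 CPM in WT. Of 12 dendritic cell genes 2 were higher and 0 lower, with a median log2 fold change of 1.21, Itgae at 231 to 259 CPM in ATF4OE and 125 to 187 CPM in WT, and Flt3. Itgae, the integrin CD103, is also made by CD8+ T cells. Of 5 tested stromal and endothelial genes 2 were higher, Kdr and Pdgfrb, and 1 lower, Pecam1, while Pdgfra and Ccl19 were at 0 counts in every library. Ighm, Pdgfra and Ccl19 are named after their values were seen.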

How the data were processed

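RNA of splenic CD8+ T cells was measured in 4 ATF4OE and 4 WT libraries. The deposited file holds gene-level estimated counts, which the authors made with Salmon against GRCm38.p6 per the submitters' processing notes, and every library's column was matched to its sample by name. Totals of 93478686 to 125974143 estimated counts set the precision. The floor of 3 counts for a group at 0 covers counting error only, while standard errors and SDs include the spread among libraries.

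Here the estimates were rounded to whole numbers. Genes passing edgeR's filterByExpr (16630 of 55291) were fitted with edgeR 4.0.16 in R 4.3.3 (TMM factors, robust quasi-likelihood test, Benjamini-Hochberg adjustment over all 16630). A gene was called at an adjusted p below 0.05. The standard error is the size of the log2 fold change divided by the square root of F. The permutation test used log2 of CPM plus 0.5. The script was tested on simulated data. Other normalizations, filters, DESeq2 1.42.0, limma-voom (limma 3.58.1), blocks, single library sets and left-out libraries were tried as alternatives.

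The members and lists were chosen with earlier results of these data known. Named are all members, up to 3 genes of each further list by smallest p, and exceptions marked in the text. Same-numbered libraries deviated together from their group means, with correlations of 0.22, 0.20, 0.29 and 0.23 over 16630 genes for replicates 1 to 4. Different numbers of the same set also correlated, at 0.16 to 0.25, so the correlations follow the sets and do not single out pairs. The main fit used no pairing. The replicate block, an alternative, took its pairing from the labels' replicate numbers alone. The promoter windows are RefSeq's, and gene positions are GENCODE's, both on GRCm38.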

Additional observations from a re-analysis of the deposited data

Results flagged for a closer look

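The difference between ATF4OE and WT itself differed between the library sets, by the interaction term of the edgeR quasi-likelihood test, in 6 of the 35 genes. The interaction, the log2 fold change in set 2 minus that in set 1, was -2.89 for Itgam, -2.66 for Itgax, -2.57 for Tyrobp, -2.11 for Fcer1g and -0.75 for Ccr2. For Camp it was -7.03, a fitted value that depends on the prior count because both WT libraries of set 1 had 0 counts. The median interaction over all tested genes was 0.04. No library stood outside its group by Dixon's criterion at the 95% level for any of the 35 genes in either group, 70 groups of 4 in all.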

How the results depend on the processing

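In all 20 alternatives each of the 35 genes that could be fitted kept a positive log2 fold change, and 17 of the 24 calls held in every one. Across the alternatives 19 to 30 of the 35 genes were higher. With the replicate number as a block 28 were: the block added the calls of Cd68, Mpeg1, Lyz2, Fcgr3, Cebpa and Elane, ended those of Tyrobp and Itgam, and changed no other call among the 35. Of the macrophage receptor and lysosome genes (4 higher), 7 were higher with DESeq2, 7 with the replicate block, 8 with the library set as a covariate and 7 in set 2 alone. Of the Fc receptor group (2 higher), 1 was higher with no filter and 1 to 2 without single libraries. Of the integrin group (3 higher), 1 was higher with no filter, 1 with the libraries short of low counts left out, and 1 to 3 without single libraries, the lowest without ATF4OE replicate 3 or 4 or WT replicate 1 or 2. Of the further myeloid lists (19 higher), 33 were higher with the replicate block, 35 with the set covariate, 34 in set 2 alone, and 11 to 21 without single libraries. The interaction passed for 11 of the 35 genes with no filter and for 4 to 5 without single libraries. The cause of these changes was not tested. Ratios of means for genes at or near 0 counts in WT, such as Camp, Elane, Ltf and Mpo, are limited by depth, and within a set each group has 2 libraries.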
